A study of Saccharomyces cerevisiae with 8 samples.

Results

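The genes described here encode the proteins of the cytosolic ribosome of the yeast Saccharomyces cerevisiae. They were taken from an Affymetrix expression array as the probe sets that name 1 gene and whose current symbol begins with RPL or RPS and a digit, or with RPP0, RPP1 or RPP2. The rule found 106 probe sets for 81 genes, among 5656 genes named by a probe set of 1 gene on the array, and the R64 gene table holds 138 genes that match it. The gene named RPP1 meets the spelling but encodes a protein of RNase P and RNase MRP, which process RNA, so it is given apart and every summary is over the other 80 genes and their 105 probe sets. These 80 were 42 genes of the large subunit, 33 of the small subunit and 5 of the P stalk, and all 80 were measured above the filter. A further 59 probe sets name several ribosomal protein genes at once, mostly pairs of near-identical copies, and were left out of the list.

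PolyA RNA from 4 strains was hybridised, 1 sample per array and 2 arrays per strain, 8 arrays in all. The strains were wild type, which served as the reference, a mutant that carries the not1-2 allele of the gene for Not1, a mutant in spt3, and a strain with both mutations, called the double mutant here. CDC39 is the gene of Not1, the large protein on which the Ccr4-Not complex is built. That complex removes polyA tails and also acts in transcription. Spt3 belongs to SAGA, a transcription coactivator, and interacts there with the TATA-binding protein. All 4 strains had the same growth: 24 h at 30 °C in a medium rich in glucose, then a move at an optical density of 0.2 to 37.5 °C, which is restrictive for the mutant, and collection at 0.8. The change that the not1-2 allele makes, the strains' full genotypes and the number of clones behind each are not given in the sources used here.

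A yeast ribosome holds a single copy of nearly every ribosomal protein, and most of these proteins are encoded by a pair of paralogs, named A and B, that arose in a duplication of the whole genome. The promoters of these genes bind Rap1, Fhl1 and Ifh1, their transcription follows growth signals from Tor and protein kinase A, and their messages are among the most abundant of a growing cell. Transcription of the family falls for a time after a shift to higher temperature or after starvation.

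The signal of a probe set is its deposited intensity after each array was centred on its median, and a change is a difference of means on the log2 scale. Signals of different probe sets are not on 1 scale, so only changes are compared between genes. Each array measured bulk RNA, so fewer cells that express a gene and less of its RNA in each cell cannot be told apart. The SPT3 signal was 25.3 and 15.5 on the wild-type arrays and 29.9 and 22.8 on those of not1-2, and it did not rise above the floor, 1.72, on any of the 4 arrays of spt3 and the double mutant. TRP1, a tryptophan synthesis gene, lay at the floor in wild type and not1-2 and between 36.0 and 56.2 in the others. MFA2, an a-factor gene, gave 4972 and 1448 in wild type and 7.44 to 18.0 in the mutants, while the alpha-factor gene MF(ALPHA)1 gave 14.9 and 17.1 in wild type and 534 to 1617 in the mutants. Each comparison with wild type below is thus also one between strains of unlike mating-type expression. Each comparison of a strain with SPT3 and one without it is also one of unlike TRP1 signal. What each difference adds cannot be told apart.

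The median signal of the ribosomal protein genes was 2805 and 1458 on the wild-type arrays 1 and 2, 1902 and 1312 in not1-2, 2409 and 1380.0 in spt3, and 2152 and 1423 in the double mutant. In each strain the array numbered 1 was the brighter one. Single genes ranged from 67.8 to 11897, and the 105 probe sets held 11.2% to 16.4% of the summed signal of an array.

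The family differed more between the arrays of a strain than between the means of the strains. On the log2 scale the median gene was higher on array 1 than on array 2 by 1.26 for wild type, 0.66 for not1-2, 0.81 for spt3 and 0.82 for the double mutant, where the median over all 7043 tested probe sets was 0.22, 0.09, 0.21 and 0.12. Of the 80 genes 69 (86.2%) were higher on array 1 in all 4 strains, and of all tested probe sets 30.4% were. An RNA quality control moved with it: the ratio of the ACT1 probe sets at the 3′ and 5′ ends of that message was 199.1, 36.8, 5.83 and 12.2 on the arrays numbered 1 of wild type, not1-2, spt3 and the double mutant, and 1.79 to 2.10 on the 4 arrays numbered 2. The part of RNA quality in the family's shifts was not tested. The same-numbered arrays also deviated together over all probe sets, so a fit with the array number as a block stands beside the fit without it.

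**Figure D1:**
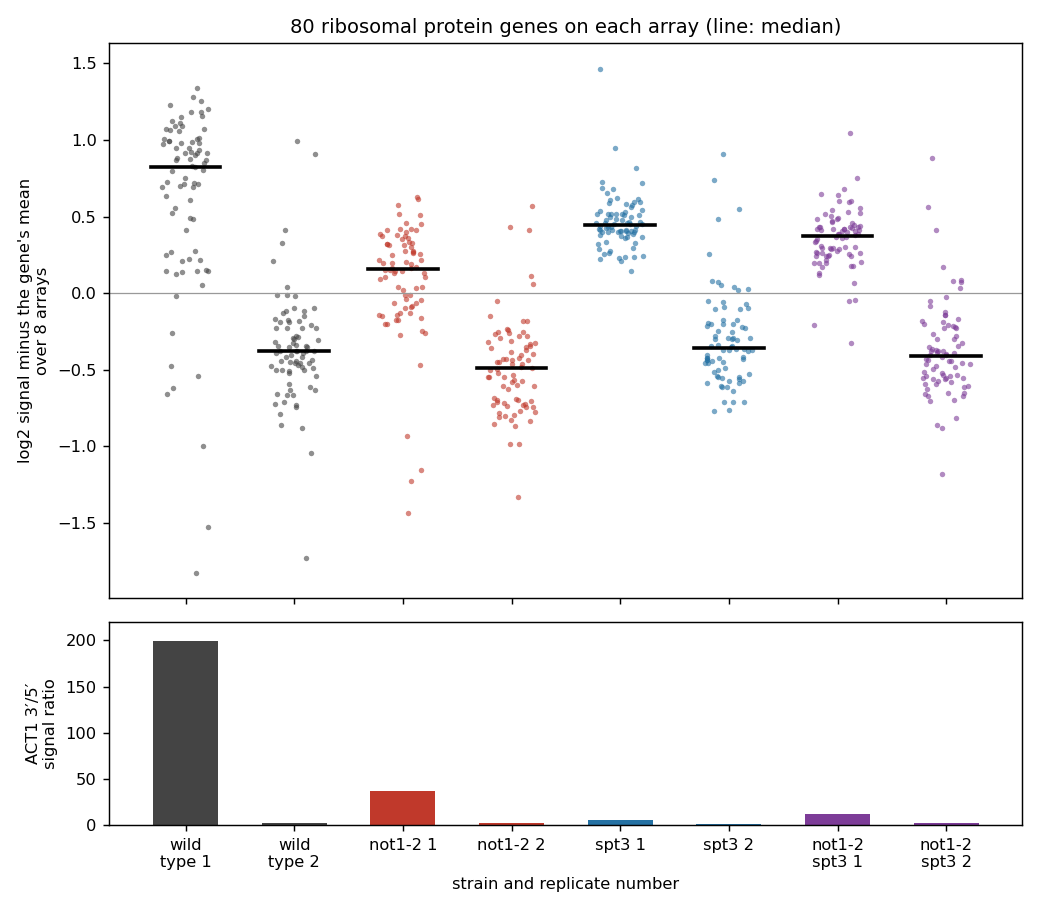
Upper panel: log2 signal of each of the 80 ribosomal protein genes (points) on each of the 8 arrays, less that gene's mean over the arrays, with the median as a line. Lower panel: the ACT1 3′/5′ signal ratio of the same arrays as bars from 0. The 4 arrays numbered 1 have their medians above 0 and the 4 numbered 2 below it, and the wild-type array 1 has both the highest median and the highest ACT1 ratio, 199.1.

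In not1-2 the family lay below wild type, by a median of -0.36 on the log2 scale, with 75 of 80 genes below and a range from -0.77 to 0.96. Over all tested probe sets the median was -0.08 and 55.6% lay below. The large subunit genes had a median of -0.32 (39 of 42 below), the small subunit genes -0.36 (31 of 33 below) and the P stalk genes -0.45 (5 of 5 below). Between the arrays numbered 1 the median of the 80 was -0.60, and between those numbered 2, where the ACT1 ratios were 1.88 and 2.10, it was -0.18. Leaving out the wild-type array 1 turned the median to 0.18 in the fit without the block and left it at -0.20 in the fit with it.

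Single genes of the list seldom passed a test in this comparison. By limma with Benjamini-Hochberg adjustment over all probe sets at 0.05, 0 of 80 were called in not1-2 against wild type, where the background was 0.0426% of all tested probe sets, and 0 had an unadjusted p under 0.05, against 7.67%. With the array number as a block 1 of 80 was called, RPS22A, which was lower, against a background of 1.99% in either direction and 0.951% lower. At an unadjusted p under 0.05 the blocked fit gave 29 genes lower and 1 higher, where the backgrounds were 10.3% and 7.62%. In both same-numbered pairs of arrays 56 of 80 genes were lower in not1-2, against 38% of all tested probe sets, while arrays of the strains did not overlap for 7 genes that were lower and 1 that was higher, against 17.3% and 14.8%.

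RPS22A, a small subunit protein gene (probe set 11236_at), had signals of 8374 and 4715 in wild type, 5659 and 3145 in not1-2, 6600.1 and 3867 in spt3, and 6672 and 3911 in the double mutant. Each not1-2 array was the lowest of its number, though array 1 of not1-2 was brighter than array 2 of wild type. The change from wild type was -0.57 ± 0.58 (SE of the fit, n = 2 arrays per strain; limma, adjusted p = 0.89), and -0.57 ± 0.12 with the block (adjusted p = 0.0482). The differences of the 2 pairs were -0.57 and -0.58. The blocked call held with the ACT1 ratio as a further covariate (adjusted p = 0.0408), and was not reached with the block and quantile normalisation, where the change was -0.040 (adjusted p = 0.868), or with the block and no centring, a scaling on the 75th percentile or on the least-varying probe sets, or all probe sets kept (adjusted p = 0.0595 to 0.125). Leaving out any 1 of the 8 arrays also ended the call, with the blocked change at -0.60 to -0.55 and an adjusted p of 0.0622 to 0.514.

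The 3 lowest estimates in not1-2 were those of RPL15B, RPL17B and RPP1A. RPL15B, a gene of the large subunit, gave 1078 and 315 in wild type, 518 and 227 in not1-2, 1104 and 470.1 in spt3, and 1181 and 463 in the double mutant. Its not1-2 arrays were the lowest of each number, and its change in not1-2 was -0.77 ± 0.78 (adjusted p = 0.892, and 0.166 with the block). RPL17B, whose protein lines the exit tunnel of the large subunit, stood at 5663 and 1995 in wild type and at 2909 and 1437 in not1-2, a change of -0.72 ± 0.70 (adjusted p = 0.888, and 0.0936 with the block). RPP1A, an acidic protein gene of the P stalk, which recruits elongation factors, had 4832 and 1547 in wild type against 2104 and 1322 in not1-2, a change of -0.71 ± 0.61 (adjusted p = 0.875, and 0.219 with the block). For each of the 3 the wild-type array 1 was far above the other 3 arrays of the comparison, and leaving it out turned the unblocked estimate to 0.12, 0.036 and 0.11.

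The 3 highest estimates in not1-2 were those of RPS14B, RPL7B and RPS7B. RPS14B, the B copy of a small subunit platform protein, gave 636 and 958 in wild type, 1367 and 1684 in not1-2, 1600.3 and 1516 in spt3, and 1709.5 and 1149.6 in the double mutant. Both wild-type arrays were below all 6 arrays of the mutants. Its changes from wild type were 0.96 for not1-2, 0.997 for spt3 and 0.85 for the double mutant, each ± 0.42 (adjusted p = 0.654, 0.864 and 0.959, and 0.134, 0.136 and 0.213 with the block). With the block and quantile normalisation the not1-2 change was 1.35 and passed (adjusted p = 0.0462).

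In spt3 the family lay nearer to wild type, with a median of -0.15 and 55 of 80 genes below, beside -0.02 and 51.6% over all tested probe sets. The medians were -0.11 in the large subunit, -0.20 in the small subunit and -0.18 in the stalk. Between the arrays numbered 1 the median was -0.35 and between those numbered 2 it was -0.013, beside -0.019 and -0.042 over all tested probe sets. Leaving out the wild-type array 1 turned the median to 0.40 without the block and to 0.017 with it. Of the 80 genes 0 were called in either fit, where the backgrounds were 0.0568% without and 0.568% with the block. At an unadjusted p under 0.05 there were 2 without the block, RPL7B and RPS14B, both higher (backgrounds 5.51% in either direction and 2.21% higher), and 9 with it, 7 of them lower (11.7%) and 2 higher (6.62%). The arrays of the strains did not overlap for 3 genes that were higher, RPS14B, RPL7B and RPS7B (16%), and for 0 that were lower (15.9%).

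The highest estimate of the whole family in any comparison was that of RPL7B, a large subunit gene, in spt3. Its probe set 7960_i_at gave 188 and 67.8 in wild type, 83.3 and 243 in not1-2, 622 and 422 in spt3, and 293 and 332 in the double mutant. The arrays of spt3 and of the double mutant were all above those of wild type and not1-2. The change from wild type was 2.18 ± 0.64 in spt3 (unadjusted p = 0.00957, adjusted p = 0.773, and 0.124 with the block), 1.47 ± 0.64 in the double mutant (adjusted p = 0.959) and 0.34 ± 0.64 in not1-2 (adjusted p = 0.953). Its other probe set, 7961_f_at, gave 51.6 and 45.8 in wild type, 74.9 and 136 in not1-2, 122 and 147 in spt3, and 109 and 132 in the double mutant, with a change of 1.47 ± 0.38 in spt3 and 1.05 ± 0.38 in not1-2 when it was fitted in its own right. The paralog RPL7A had an estimate of 0.89 ± 0.96 in spt3. Its signals were 193 and 1362 on the wild-type arrays and 895 and 1005 on those of spt3, so that the spt3 arrays lay between the wild-type ones.

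The 3 lowest in spt3 were RPL16B, RPS28A and RPL39. RPL16B, of the large subunit, gave 5519.7 and 1542 in wild type and 2728 and 1330.3 in spt3, a change of -0.61 ± 0.78 (adjusted p = 0.88, and 0.202 with the block). RPS28A, of the small subunit, gave 3589 and 1249 against 1832 and 1078, a change of -0.59 ± 0.62 (adjusted p = 0.866, and 0.245 with the block). RPL39, which encodes a small protein of the exit tunnel and has no paralog, gave 2797 and 1023 against 1570.4 and 842, a change of -0.56 ± 0.65 (adjusted p = 0.872, and 0.234 with the block). In all 3 genes the arrays of the strains overlapped, and array 1 of wild type was the brightest of the 8.

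In the double mutant the median against wild type was -0.24, with 60 of 80 genes below, beside -0.05 and 53.2% over all tested probe sets. The pairs of arrays gave -0.43 and -0.093. Without the wild-type array 1 the median was 0.32 in the unblocked fit and -0.069 in the blocked one. Of the 80 genes 0 passed in either fit (backgrounds 0.071% without and 0.199% with the block), 0 had an unadjusted p under 0.05 without the block (4.3%) and 13 had one with it, 11 of them lower (10.3%) and 2 higher (4.42%). Beside RPS28A and RPL16B the lowest was RPL9A, at -0.65 ± 0.77 (adjusted p = 0.959, and 0.335 with the block), and the 3 highest were RPL7B, RPS14B and RPL7A. The arrays did not overlap for RPS14B and RPL7B, which were higher (13.2%), and for 0 genes that were lower (12.5%).

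Within not1-2 cells, the spt3 mutation, and the TRP1 difference beside it, went with higher estimates for most of the family. The double mutant had a median of 0.16 against not1-2, with 67 of 80 genes above, beside 0.06 and 55.1% over all tested probe sets. The medians were 0.15 in the large subunit, 0.19 in the small subunit and 0.25 in the stalk, and 0.23 and 0.13 in the pairs of arrays. Leaving out array 1 of the double mutant or array 2 of not1-2 turned the unblocked median to -0.26 and -0.18, while the blocked one stayed at 0.061 to 0.26 whichever array was left out. In both pairs 54 of 80 genes were higher, against 39.3% of all tested probe sets. The arrays did not overlap for 10 genes that were higher (20.2%) and for 0 that were lower (18%). Of the 80 genes 0 were called in either fit (backgrounds 0.0284% without and 2.36% with the block), 0 had an unadjusted p under 0.05 without the block (7.61%), and with the block 7 did, all of them higher (7.04%).

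The highest estimates there were those of RPL7B, at 1.13 ± 0.64 (adjusted p = 0.753, and 0.348 with the block), RPL15B, at 1.11 ± 0.78 (adjusted p = 0.803, and 0.0573 with the block), and RPL13A, at 0.64 ± 0.48 (adjusted p = 0.816, and 0.305 with the block). RPL15B was higher in the double mutant in both pairs of arrays, by 1.19 and 1.03. It passed with the block when the arrays were left as deposited (adjusted p = 0.0479) or quantile normalised (adjusted p = 0.0344). RPL13A, of the large subunit, gave 339.6 and 627 in not1-2 and 711 and 731 in the double mutant, with no overlap. The lowest were RPL9A, at -0.33 ± 0.77, RPS26B, at -0.22 ± 0.73, and RPS1B, at -0.21 ± 0.87, with adjusted p of 0.97, 0.982 and 0.988 (0.601, 0.76 and 0.681 with the block).

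The double mutant and spt3 differed little over the family. The median was -0.064 (-0.47 to 0.33 when each array was left out in turn without the block), with 60 of 80 genes below, beside -0.035 and 56.9% over all tested probe sets, and 0 genes passed or had an unadjusted p under 0.05 in either fit (backgrounds at the unadjusted threshold 0.142% without and 0.653% with the block). Calls at the adjusted threshold were 0% of all tested probe sets in both fits. The arrays did not overlap for 4 genes, all lower in the double mutant, RPL7B, RPS27A, RPL13A and RPL15A (6.57%), and for 0 that were higher (5.44%). RPL7B had the lowest estimate, -0.72 ± 0.64, and RPS25A, of the small subunit, the highest, 0.15 ± 0.68, both with an adjusted p of 1.

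The interaction compares the effect of losing SPT3 in not1-2 with that in wild type. The step from wild type to spt3 also switched mating-type expression, with a median change of -4.63 in 6 a-cell genes. From not1-2 to the double mutant that median was -0.62, so the interaction also holds the mating-type difference. The family's median interaction was 0.27, with 67 of 80 genes above 0, beside 0.06 and 53.3% over all tested probe sets. It was 0.51 from the arrays numbered 1 and 0.14 from those numbered 2, and without the wild-type array 1 it was -0.24 in the unblocked fit and 0.16 in the blocked one. Of the 80 genes 0 passed in either fit (backgrounds 0% without and 0.0852% with the block). Without the block 0 had an unadjusted p under 0.05 (3.49%), and with it 7 did, 6 of them above 0 (5.1%) and 1 below (5.04%). The lowest estimate was that of RPS14B, at -1.11 ± 0.59 (adjusted p = 0.999, and 0.396 with the block), which was -1.01 and -1.21 in the pairs of arrays, and the highest was that of RPL15B, at 0.80 ± 1.11 (adjusted p = 0.999, and 0.499 with the block).

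**Figure D2:**
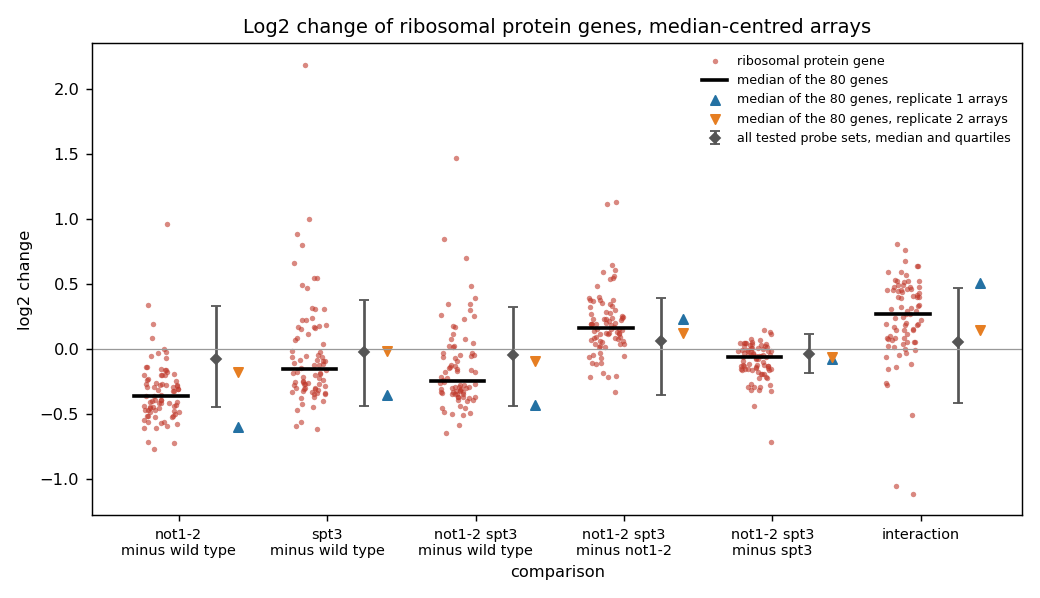
Log2 change of each of the 80 ribosomal protein genes (points) in 6 comparisons of strain means, with their median as a black line, the medians from the arrays numbered 1 and 2 as triangles, and the median and quartiles of all 7043 tested probe sets as a grey diamond with bars. The family's median against wild type is -0.36 for not1-2, -0.15 for spt3 and -0.24 for the double mutant, and the replicate 1 triangle lies farther from 0 than the replicate 2 triangle in each.

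The shifts of the family against wild type depended on how the arrays were scaled. With the signals as deposited the medians were -0.22 for not1-2, -0.04 for spt3 and -0.07 for the double mutant, while the median of all tested probe sets moved to 0.06, 0.09 and 0.12. Quantile normalisation, which gives every array the same distribution of signals, put the 3 medians at 0.04, 0.09 and 0.06, with 34, 31 and 29 of 80 genes below wild type. It also took the gap between arrays 1 and 2 from 1.26 to 0.24 in wild type and to 0.10, 0.18 and 0.10 in not1-2, spt3 and the double mutant. The higher median of the double mutant over not1-2 stayed above 0 under all 6 scalings, at 0.05 to 0.20. Its lowest value came with quantile normalisation. There the medians of all tested probe sets against wild type were 0.00016 for not1-2 and 0.056 for the double mutant. For the double mutant against not1-2 the median of all tested probe sets is given under the main scaling only.

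**Figure D3:**
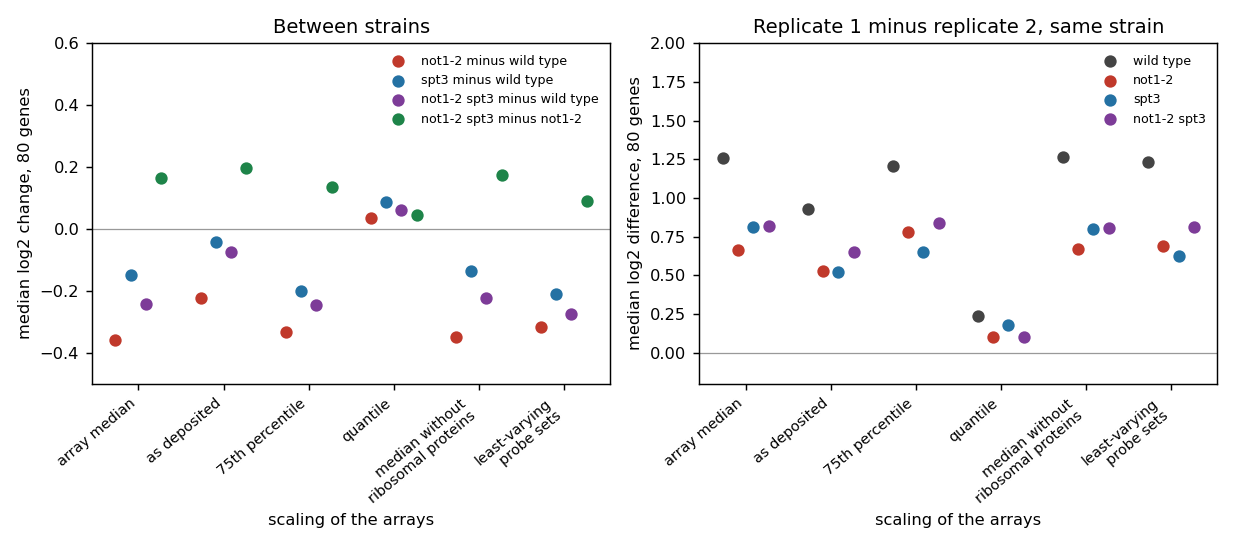
Median log2 change of the 80 genes in 4 comparisons of strains (left) and median log2 difference between arrays 1 and 2 of each strain (right) under 6 scalings of the arrays; each point is 1 median. Quantile normalisation brings the strain medians to between 0.04 and 0.09 and the differences between arrays of a strain to between 0.10 and 0.24.

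The ratio of 2 paralogs on the same array is left as it is by any factor that scales the array. Both members were measured for 31 pairs, which hold 62 of the 80 genes, and the other 18 genes had no measured partner. The strain means of the log2 ratio of the A over the B copy spanned a median range of 0.43 over the 31 pairs, and the median pooled SD between the arrays of a strain was 0.35 (4 degrees of freedom). In 16 pairs the range was larger than the SD. The range spans the means of 4 strains while the SD is that of single arrays. A range above the SD thus does not by itself mark a difference between strains. The ratios on the 4 arrays numbered 1 and the 4 numbered 2 did not overlap for 13 pairs. With 2 arrays against 2 an exact 2-sided permutation test cannot go below p = 0.333, so the ratios are given as values with no test.

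For 2 of the 31 pairs, RPL9 and RPL21, the ratio separated the 4 arrays with SPT3 from the 4 without it. For 0 pairs did it separate the arrays by NOT1, and for 13 it separated them by array number. How many of the 31 pairs would separate without a strain effect was not worked out. The split by SPT3 is also a split by TRP1 signal. The signal of RPL9A over that of RPL9B, copies of a large subunit protein gene, was 1.19 and 1.14 in wild type, 0.969 and 1.09 in not1-2, 0.709 and 0.504 in spt3, and 0.638 and 0.537 in the double mutant. Both spt3 strains lay below both others, whichever array number was taken, and the strain means of the log2 ratio ranged over 0.99 with a pooled SD of 0.21. Leaving out each array in turn kept the difference between wild type and the double mutant at 0.87 to 1.12. The fitted changes of the copies in spt3 were of opposite sign, -0.47 ± 0.77 for RPL9A and 0.49 ± 0.71 for RPL9B (adjusted p = 0.91 and 0.896). RPL9A itself gave 771 and 222 in wild type and 469 and 190.0 in spt3, and RPL9B gave 648 and 195 in wild type and 661 and 377 in spt3, so each copy overlapped between the strains and their ratio did not.

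RPL21, another large subunit pair, gave an A over B ratio of 0.763 and 0.668 in wild type, 0.855 and 0.749 in not1-2, 0.559 and 0.627 in spt3, and 0.516 and 0.645 in the double mutant. The spt3 strains were again the lower ones, with 0.645 and 0.668 as the nearest arrays, a range of 0.47 and a pooled SD of 0.16. RPL21B gave 4615 and 3505 in wild type, 3526 and 2664 in not1-2, 6258 and 3240.5 in spt3, and 6250.0 and 3281 in the double mutant. The log2 ratio of RPL21 in not1-2 exceeded that in the double mutant by 0.31 without array 1 of the double mutant and by 0.63 without array 2. RPL21A gave 3521 and 2341 in wild type and 3496 and 2032 in spt3.

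RPS14 had the widest range among the 8 pairs ranked first, with A over B ratios of 2.00 and 1.08 in wild type, 0.711 and 0.578 in not1-2, 1.17 and 0.643 in spt3, and 0.768 and 0.978 in the double mutant. The range of 1.20 stands beside a pooled SD of 0.47, and without the wild-type array 1 it was 0.76. The arrays of not1-2 did not overlap those of wild type or the double mutant. In not1-2 the A copy was at -0.24 ± 0.43 and the B copy at 0.96 ± 0.42 against wild type.

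RPL33, RPL14 and RPL22, 3 large subunit pairs, also had their lowest ratio in not1-2, with ranges of 0.30, 0.34 and 0.60 and pooled SDs of 0.11, 0.13 and 0.30. For RPL33 the ratios were 1.30 and 1.55 in wild type against 1.11 and 1.19 in not1-2. For RPL14 they were 3.03 and 2.40 against 2.21 and 2.05. For RPL22, whose B copy gave 657 and 189 in wild type against 422 and 295 in not1-2, they were 9.66 and 15.6 against 9.18 and 7.14, so the not1-2 arrays lay below the wild-type ones in all 3 pairs. The 3 pairs were taken by their rank. Of the 31 pairs, 6 had no overlap between not1-2 and wild type. Lack of overlap in 1 pair has an exact 2-sided permutation p of 0.333. The differences in the 3 pairs rested in part on single wild-type arrays. The log2 ratio in wild type exceeded that in not1-2 by 0.18 for RPL33 without array 2 and by 0.43 without array 1. For RPL14 it did so by 0.17 without array 1 and 0.51 without array 2, and for RPL22 by 0.26 without array 2 and 0.95 without array 1. RPL16 and RPL24, with ranges of 0.27 and 0.30 and pooled SDs of 0.16 and 0.18, had their lowest mean in wild type and their highest in spt3. The log2 ratio of RPL16 in spt3 exceeded that in wild type by 0.071 without the wild-type array 1 and by 0.48 without array 2.

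**Figure D4:**
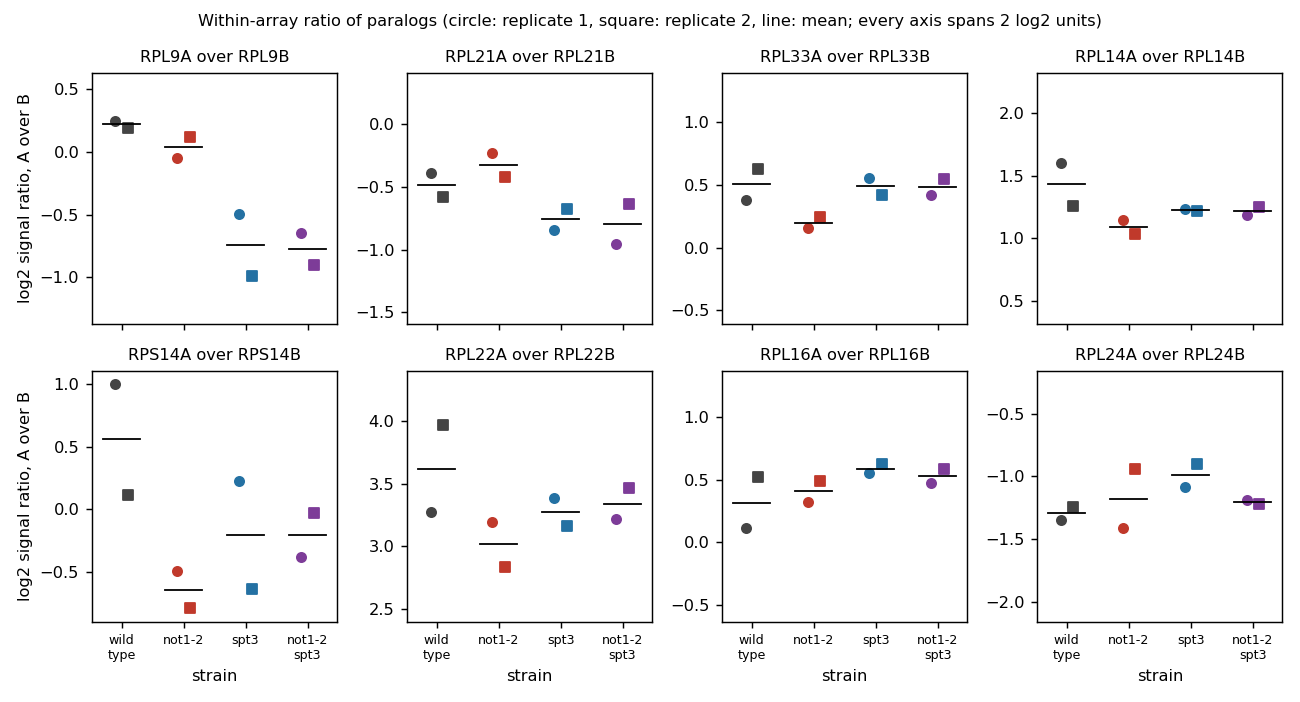
Log2 ratio of the A over the B copy on each array (circle: array 1, square: array 2) with the mean of each strain as a line, for the 8 paralog pairs with the widest range of strain means for their spread; the axes differ in position and share a span of 2 log2 units. The ratios of RPL9 and RPL21 in the spt3 strains lie below those of wild type and not1-2, and RPS14 has its lowest mean in not1-2.

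Several genes had more than 1 probe set, and these did not always move together. Of the 21 genes with at least 2 probe sets, 20 had 2 that passed the filter, and the sign of the change was shared by all probe sets of the gene for 16 genes in not1-2, for 15 in spt3 and for 16 in the double mutant against wild type. RPS10B was the remaining gene, with 9414_f_at at 584 to 1432 and 9413_f_at at 1.72 to 5.19. Of the 105 probe sets 22 carry the suffix _i_at and 28 the suffix _f_at, by which the maker marks sets with few unique probes and sets that can bind a family of like sequences, so signal of a near-identical copy may be included.

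Against the rest of the family, 8 probe sets were lower on array 1 than on array 2 in all 4 strains, or 7.62% of the 105, while 82 were higher. They belonged to RPS0A, RPS0B, RPL7A (2 probe sets), RPS28B (2 probe sets), RPS22B and RPL13A. RPS0A and RPS0B encode a small subunit protein, and 10300_f_at of RPS0B gave 27.4 and 453 in wild type, 55.0 and 544 in not1-2, 281 and 601 in spt3, and 119 and 557 in the double mutant. The other probe set of that gene, 10301_at, gave 3393 and 2996 in wild type, 2893 and 2431 in not1-2, 4938 and 3140.4 in spt3, and 4018 and 2959.7 in the double mutant. The first was lower on array 1 in each strain and the second higher, and in spt3 against wild type the 2 differed by 1.58 in their log2 change, the widest gap of any gene in that comparison.

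For 4779_f_at of RPS0A the signals were 75 and 824 in wild type, 139 and 717 in not1-2, 599 and 618 in spt3, and 340.3 and 819.7 in the double mutant, while 4780_at of the same gene gave 2801 and 1445, 1739 and 1166, 2420.3 and 1263, and 2064 and 1299. The gap of the first between arrays 1 and 2 was thus widest in wild type and narrowest in spt3, and the ACT1 ratios of arrays 1 run in the same order of strains. This likeness was seen after the values were. In 12.4% of the 105 probe sets array 1 minus array 2 rose from wild type through not1-2 and the double mutant to spt3. In 8.57% it fell in that order, and the shares over all tested probe sets were 8.25% and 5.95%. These counts take the signed log2 difference, not the width of the gap. They thus include probe sets higher on array 1, such as that of RPL21B, whose gap widens in that order. The part that RNA quality has in these probe sets was not tested.

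**Figure D5:**
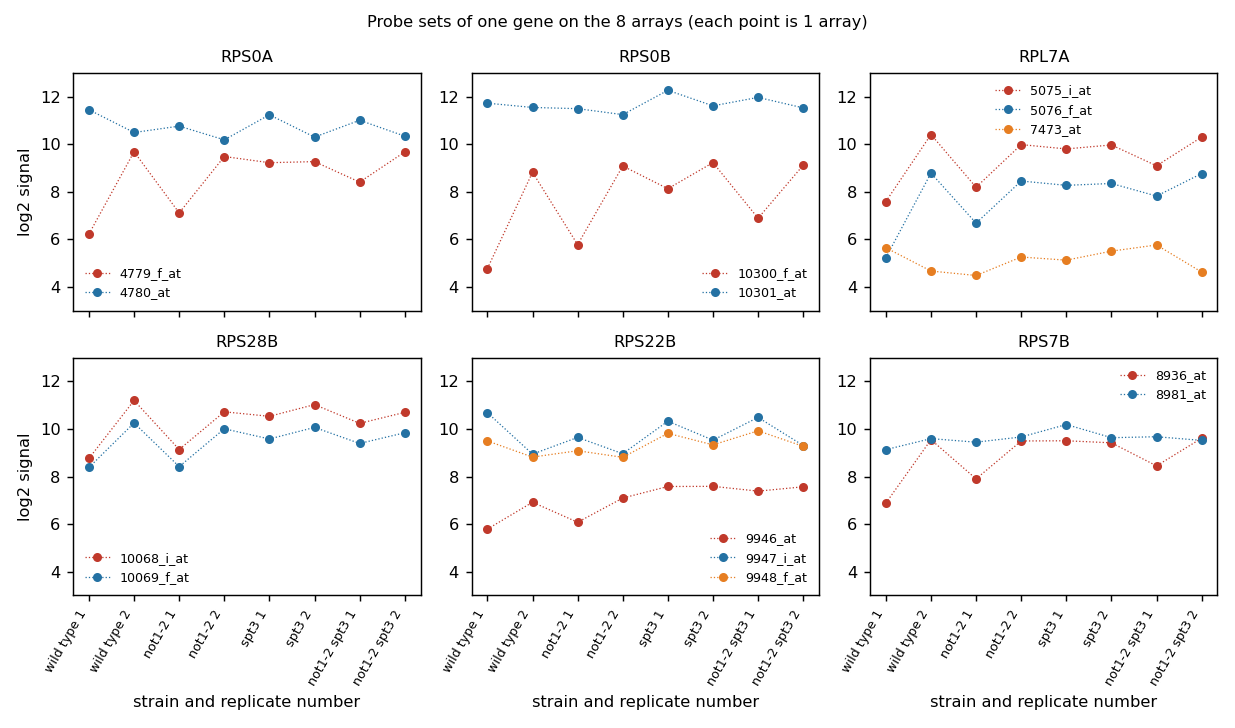
Log2 signal of each probe set of 6 genes on the 8 arrays, 1 point per probe set and array, with dotted lines that only join the points of a probe set. In RPS0A and RPS0B 1 probe set is low on arrays 1 of wild type and not1-2 and the other is not, and in RPS28B both probe sets are low there.

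The gene of the list that is not ribosomal, RPP1, gave 119 and 92.2 in wild type, 110.2 and 82.4 in not1-2, 132 and 89.8 in spt3, and 123 and 102 in the double mutant. Its change from wild type was -0.13 ± 0.37 for not1-2, 0.06 ± 0.37 for spt3 and 0.10 ± 0.37 for the double mutant (adjusted p = 0.972, 0.975 and 0.974).

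Other genes of ribosome supply and use were taken from lists written with earlier results of these data known. Of 11 translation elongation and termination factors 8 lay below wild type in not1-2, with a median of -0.62, beside 55.6% below over all tested probe sets, and the blocked fit called 2 of them lower, EFB1 and HYP2 (background 0.951% lower). EFB1, a subunit of elongation factor eEF1B, gave 2408 and 2110.4 in wild type, 1298 and 836 in not1-2, 1838 and 1743 in spt3, and 2019.6 and 1596 in the double mutant. Its not1-2 arrays were below all 6 others, and the change from wild type was -1.11 ± 0.41 (adjusted p = 0.605; with the block ± 0.20, adjusted p = 0.033). HYP2, the gene of eIF5A, gave 8281 and 3016 in wild type against 4039 and 1299.6 in not1-2, a change of -1.13 ± 0.83 (adjusted p = 0.844; with the block ± 0.18, adjusted p = 0.0224). Against not1-2 the double mutant had estimates of 0.79 and 0.65 for them, which did not pass (adjusted p = 0.0748 and 0.0885 with the block), and all 11 factors had an estimate above 0 there, beside 55.1% of all tested probe sets.

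Of 10 ribosome-associated proteins 8 lay below wild type in not1-2, with a median of -0.40, and the blocked fit called 1 lower, against the same 55.6% and 0.951%. That gene was ZUO1, a chaperone at the exit tunnel, with 1873 and 897 in wild type, 885 and 424 in not1-2, 1076 and 686 in spt3, and 1303 and 726 in the double mutant. Its change in not1-2 was -1.08 ± 0.58 (adjusted p = 0.757; with the block ± 0.22, adjusted p = 0.0482). Leaving out any 1 of the 4 arrays of wild type and not1-2 ended the blocked calls of EFB1, HYP2 and ZUO1. Their changes were then -1.33 to -0.90, -1.26 to -0.99 and -1.19 to -0.98. Leaving out either double-mutant array ended the calls of EFB1 and ZUO1. With the block and quantile normalisation all were lost (adjusted p = 0.127, 0.0994 and 0.0712). So they were with the block and a scaling on the 75th percentile or the least-varying probe sets (adjusted p = 0.0565 to 0.0755). With the block and no centring HYP2 alone passed (adjusted p = 0.0447). With the block, the ACT1 ratio as covariate or all probe sets kept ended the call of ZUO1 alone (adjusted p = 0.063 and 0.0568). Of 24 initiation factors 17 lay below wild type in not1-2 (median -0.18), of 15 ribosomal protein chaperones and importins 11 (median -0.22), of 21 growth signalling genes 11 (median -0.037) and of 13 regulators of the family 7 (median -0.038), with 0 called in either fit. In spt3, where 51.6% of all tested probe sets lay below wild type, most of these last genes had estimates above it. There the initiation factors had 5 of 24 below (median 0.31), the chaperones and importins 2 of 15 (median 0.25), the signalling genes 6 of 21 (median 0.26) and the regulators 2 of 13 (median 0.41), while the elongation and termination factors had 5 of 11 below (median 0.025) and the ribosome-associated proteins 6 of 10 (median -0.18). In the double mutant the 6 medians ran from -0.22 to 0.25. In spt3 and in the double mutant 0 genes of the 6 lists were called against wild type in either fit (backgrounds 0.0568% and 0.071% without the block, 0.568% and 0.199% with it), and at an unadjusted p under 0.05 without the block there were 1 in spt3, SFP1, and 0 in the double mutant.

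Of the regulators that act on ribosomal protein gene promoters, 4 are given with their signals. RAP1 gave 20.8 and 35.9 in wild type, 16.0 and 20.3 in not1-2, 36.8 and 37.0 in spt3, and 37.8 and 28.0 in the double mutant, with a change of -0.60 ± 0.40 in not1-2 (adjusted p = 0.798, and 0.399 with the block). SFP1, an activator of the family, gave 14.5 and 18.6 in wild type, 21.1 and 40.6 in not1-2, 38.9 and 39.2 in spt3, and 25.4 and 38.1 in the double mutant, with a change of 1.25 ± 0.43 in spt3 (adjusted p = 0.864, and 0.112 with the block). IFH1 gave 15.8 and 40.5 in wild type and 35.2 and 53.6 in spt3, a change of 0.78 ± 0.50 (adjusted p = 0.864, and 0.294 with the block), and FHL1 lay between 5.30 and 11.2 on all 8 arrays. For SFP1 the 6 mutant arrays were all above the 2 of wild type, both not1-2 arrays were below both wild-type arrays for RAP1, and wild type and spt3 overlapped for IFH1.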

How the data were processed

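Signal intensities, 1 per probe set and array on a linear scale, were deposited by the authors; per the labels, the RNA came from an acid phenol extraction and carried biotin in the usual Affymetrix way, and the sources used here do not give the software that made the signals. A mean that left out 2% of the values at either end came to 100.1 on every array, and the medians differed by up to 0.419 (log2). Each array was therefore scaled to a common median, floored at the 10th percentile (1.72) and log2 transformed. Of 9275 probe sets (60 controls left out) 7509 had a strain mean above 6.99, the 25th percentile, and 7043 remained with 1 probe set per gene, the brightest. Symbols came from the platform annotation, updated by gene identifier to assembly R64.

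All 8 arrays were fitted with limma 3.58.1 in R 4.3.3, with a trend in intensity, and p-values were adjusted by Benjamini-Hochberg across the 7043 at 0.05. Whether replicates came from separate cultures is not stated, so the spread behind each p-value may be technical. Same-numbered arrays deviated from their strains' means together, in all 6 strain pairs (r = 0.188 to 0.739), so array numbers were treated as pairs and the fit was repeated with the number as a block. The interaction is the double mutant minus not1-2, less spt3 minus wild type. The procedure was tested on simulated data.

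The members and gene lists were chosen with earlier results of these data known. The rule for named genes took, per comparison, members that passed in either fit and the 3 highest and 3 lowest estimates, 8 paralog pairs ranked by range over SD (SD at least 0.1), and passing genes of the other lists. Genes given for lack of overlap, for several probe sets or for probe sets lower on array 1 were chosen after their values were seen. Alternatives changed the scaling, floor, filter, trend, threshold, arrays and probe sets of a gene, or left out each array in turn.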

Additional observations from a re-analysis of the deposited data

Results flagged for a closer look

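The family's shift with the spt3 mutation had opposite signs in the 2 NOT1 backgrounds. The median log2 change of the 80 ribosomal protein genes was -0.15 from wild type to spt3 and 0.16 from not1-2 to the double mutant, a difference of -0.31, and both pairs of same-numbered arrays showed the sign in each background (-0.35 and -0.01 against 0.23 and 0.13). The difference of the medians was not tested, and 0 of the 80 genes passed the interaction test in either fit. The step from wild type to spt3 also switched mating-type expression, with median changes of -4.63 in 6 a-cell genes and 2.15 in 4 alpha-cell genes. From not1-2 to the double mutant these were -0.62 and -0.59. What mating type adds to the difference cannot be told apart. Over all tested probe sets the medians were -0.022 and 0.065, of the same signs. In the pairs of arrays they were -0.019 and -0.042 for spt3, and 0.068 and 0.042 for the double mutant. The family's -0.01 was thus not below that of all tested probe sets. Leaving out the wild-type array 1 turned the family's spt3 median to 0.40 (0.017 with the block). Leaving out array 1 of the double mutant turned its median there to -0.26 without the block. With quantile normalisation the family's medians were 0.089 and 0.046.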

How the results depend on the processing

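With 2 arrays per strain the spread between arrays limits every value here, and the unblocked fit had a median SE of 0.62 for the family's changes. The count of genes called without the block was 0 in all 6 comparisons under every other scaling, floor, filter, trend, threshold and set of arrays run. With the replicate block it was 1 in not1-2 against wild type, and 1 with the ACT1 ratio in addition. With the block it was 4 there and 1 in the double mutant against not1-2 at an adjusted p of 0.10, 1 and 1 with quantile normalisation, and 1 in the double mutant against not1-2 with no centring. The share of all tested probe sets called under these other settings is not given here, so whether the counts exceed it cannot be read from them. In the other 6 lists the block called 3 genes in not1-2, all 3 lost when any array of wild type or not1-2 was left out (added after seeing the data). All 3 were also lost with the block and quantile normalisation, the 75th percentile or the least-varying probe sets. Leaving out each array in turn gave 0 without the block, and with it 0 to 1 in not1-2 against wild type (1 without the wild-type array 2), in spt3 against wild type (1 without the spt3 array 2) and in the double mutant against not1-2.

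The family's median log2 changes under quantile normalisation, with or without the block, were 0.036, 0.089 and 0.061 against wild type in not1-2, spt3 and the double mutant, 0.046 in the double mutant against not1-2, -0.0094 against spt3 and -0.049 for the interaction. The least-varying probe sets gave 0.091 in the double mutant against not1-2. The double mutant against spt3 gave -0.035 with them, -0.016 with the 75th percentile, -0.088 with all probe sets kept, -0.0035 with no centring and -0.094 with the block and the ACT1 ratio. Leaving out each array in turn gave -0.98 to 0.18 (not1-2), -0.77 to 0.40 (spt3) and -0.84 to 0.32 (double mutant) against wild type, -0.26 to 0.54 against not1-2, -0.47 to 0.33 against spt3 and -0.24 to 0.88 for the interaction. With the block these were -0.59 to -0.20, -0.36 to 0.017, -0.40 to -0.069, 0.061 to 0.26, -0.096 to -0.047 and 0.16 to 0.47. The lowest and highest of the values against wild type and of the interaction came from leaving out a wild-type array. The arrays numbered 2 alone, chosen after seeing the data, gave -0.18, -0.01, -0.09, 0.13, -0.06 and 0.14.

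With the block and the ACT1 ratio RPL7A turned to -0.40 for spt3 and to -0.31 for the double mutant, and RPS7B to -0.029 in not1-2. Leaving out each array in turn turned other estimates that had not passed. Against wild type the ranges in not1-2 were -1.65 to 0.12 (RPL15B), -1.47 to 0.036 (RPL17B), -1.53 to 0.11 (RPP1A), -0.44 to 1.11 (RPL7B, and -0.74 to 1.42 with the block) and -0.039 to 0.42 (RPS7B, and -0.12 to 0.50 with the block). In spt3 they were -1.53 to 0.31 (RPL16B), -1.28 to 0.17 (RPL39), -0.52 to 2.30 (RPL7A) and -1.35 to 0.17 (RPS28A). In the double mutant they were -1.42 to 0.42 (RPL16B), -0.71 to 2.11 (RPL7A, and -0.18 to 1.58 with the block), -1.54 to 0.25 (RPL9A) and -1.34 to 0.18 (RPS28A). For the double mutant against not1-2 they were -0.92 to 0.27 (RPL9A), -1.10 to 0.68 (RPS1B) and -0.80 to 0.37 (RPS26B, and -0.44 to 0.0078 with the block). Against spt3 they were -0.43 to 0.65 (RPL16B, and -0.076 to 0.30 with the block), -0.49 to 0.75 (RPL27B, and -0.027 to 0.29 with the block), -1.33 to 0.45 (RPS1B) and -0.36 to 0.67 (RPS25A). A strain left with 1 array was taken to vary as much as the other strains did. The cause of these changes was not tested. For each of the 8 named pairs, the difference between the strains with the highest and the lowest mean over all arrays was followed. When each array was left out, this difference moved by under 1.5 times for RPL9 (0.87 to 1.12) and RPL24 (0.21 to 0.39). Other strains can become the extremes when an array is left out, so these values do not show which pairs had the steadiest range. The 8 named paralog pairs have 1 probe set per gene, so another probe set gave no value for them.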

Other observations

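The 59 probe sets that name several ribosomal protein genes were tested and gave shifts of similar size to those of the 80 genes. Their median log2 change from wild type was -0.34 in not1-2 (57 of 59 below), -0.16 in spt3 (42 below) and -0.23 in the double mutant (47 below), where 55.6%, 51.6% and 53.2% of all tested probe sets lay below. It was 0.14 from not1-2 to the double mutant (49 above) and -0.08 from spt3 to the double mutant, and 0.26 for the interaction. In the pairs of arrays the not1-2 median was -0.55 and -0.13. Of the 59, 0 were called in any of the 6 comparisons by limma, where 0% to 0.071% of all tested probe sets were called without the block and 0% to 2.36% with it. At an unadjusted p under 0.05 there were 0 without the block in each comparison, where the backgrounds were 0.142% to 7.67%. With the block there were 15 in not1-2 (background 17.9%), 5 in spt3 (18.3%) and 6 in the double mutant (14.7%) against wild type. It gave 5 in the double mutant against not1-2 (18.6%), 0 against spt3 (0.653%) and 4 for the interaction (10.1%).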
